A study of Mus musculus with 18 samples.

Results

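DNA replication genes, 44 in all, were followed across 18 expression arrays of mouse embryonic stem cells (strain 129SV). The genes were chosen by name for their place in replication: 9 load the helicase at origins or restrain that loading (Gmnn), 6 encode the MCM helicase, 6 switch it on, 8 encode polymerases and primase, 6 the sliding clamp and its loader, 5 bind single strands or join the lagging strand, and 4 supply nucleotides. The array carried probes for all 44, and 43 were tested among 16022 genes. Each gene was read from its brightest probe as log2 signal minus the 75th percentile of its array, so a level states how far a gene lay above or below that percentile, and a probe's level is not set against another probe's. The 44th gene, Pole, had an outlier spot on 1 array and was described without a test. All 43 tested genes were well above background on all 18 arrays, so the filter on dim probes removed no replication gene.

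All cells were Esrrb knockout cells (Esrrb encodes an orphan nuclear receptor that helps to hold pluripotency), and all carried Raf-ErT2, a Raf kinase that 4OHT (4-hydroxytamoxifen) switches on, and through it Mek and ERK. The study's title sets it in work on how ERK primes these cells for a lineage through enhancers. By the labels, 9 arrays are Rescue, from cells given back Esrrb as a transgene, and 9 are KO, from cells that received the empty vector. Each line had 3 untreated arrays (0h), 3 titled 8h and 3 titled 8h2h. Before treatment the cells, kept in serum and LIF with the GSK3 inhibitor Chir99021, were moved to serum and LIF with PD173074, an FGF receptor inhibitor, in both lines and all groups. The titles stand for 8 h of 4OHT and for 8 h of 4OHT followed by 2 h of a Mek inhibitor (PD03). On the 12 treated arrays the source description says the reverse of the title, and groups here follow the titles. The summed signal of 9 ERK output genes, in units of each array's 75th percentile, was 64.3 to 73.3 on arrays labelled Rescue at 0h, 130 to 137 at titled 8h and 58.3 to 63.1 at titled 8h2h. On arrays labelled KO it was 73.1 to 80.1, 145 to 157 and 66.1 to 85.8. Nothing in the labels says that replicates a, b and c were separate cultures, so p-values measure the spread between these arrays, which may be technical.

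A cell copies its genome by loading the ring-shaped MCM helicase on origins while it is in G1 and by starting the loaded helicases in S phase. The origin recognition complex, Cdc6 and Cdt1 do the loading, and geminin blocks Cdt1 so that no origin is used again. Cdc45 and the GINS complex turn the ring into an active helicase, DNA polymerase alpha with primase starts each strand, and polymerases delta and epsilon extend it on the PCNA clamp. Many of these genes are transcribed at the G1 to S transition under E2F factors and the pocket proteins that hold E2F back. Embryonic stem cells spend much of their short cycle in S phase and keep this programme high. In bulk RNA, fewer cells in S phase and less of these transcripts per cell cannot be told apart.

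Some arrays stood apart before any comparison. Background was high on KO-labelled titled 8h2h replicate b, where 88.6% of probes were well above background against 46.6% to 63.8% on the other arrays. On that array 9 of the 43 genes lay more than 0.4 (log2) under the mean of the other replicates and 0 lay as far above. On Rescue-labelled 0h replicate c, 16 genes lay that far under the other replicates and 1, Orc1, lay that far over them. Of all genes tested, 45.4% on the former array and 42.3% on the latter lay that far off in either direction. Deviations of that size are thus not particular to the replication genes. The shares of all genes in each direction are not given, so whether the common direction is particular to them was not tested. Calls that were lost without one of these arrays are given with and without it. The replicate letters were slides, each with all 6 groups, and arrays of the same line on a slide shared deviations: Rescue-labelled arrays titled 8h and 8h2h of slide a correlated at r = 0.733 over all genes after subtraction of group means. The brightest Esrrb probe was not lower on the KO-labelled arrays. At 0h the lines overlapped, at 4.13 to 4.87 on the Rescue-labelled arrays and 4.74 to 5.27 on the KO-labelled ones. On treated arrays the lines were apart, with the KO-labelled arrays higher. At titled 8h the levels were 1.75 to 2.15 (Rescue-labelled) and 3.50 to 4.09 (KO-labelled), a difference of 1.84 ± 0.26 (SE, adjusted p = 0.000203). At titled 8h2h they were 1.53 to 1.78 and 3.26 to 4.30, a difference of 2.23 ± 0.26 (SE, adjusted p = 5e-05). The sources used here do not say whether this probe lies in the deleted part, so it is no check of the genotype, and every direction between the lines below rests on the labels.

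The cells carried the markers of pluripotent cells. All 12 pluripotency markers were tested. Their summed signal lay under that at 0h on the treated arrays of each line, except that the KO-labelled arrays at 0h and titled 8h overlapped. On the Rescue-labelled arrays it was 735 to 860 times the 75th percentile at 0h, 626 to 650 at titled 8h and 541 to 638 at titled 8h2h, and on the KO-labelled arrays 794 to 866, 687 to 803 and 579 to 717. Single markers went both ways. Against 0h, 5 of the 12 were called lower and 3 higher on the Rescue-labelled arrays titled 8h (all genes 16.1% and 13%). On the KO-labelled arrays 3 were lower and 2 higher (13.5% and 11.9%). At titled 8h2h the counts were 7 and 2 (10.8% and 10.5%), then 5 and 2 (11.4% and 11%). Of 12 fibroblast markers 8 were tested, with a summed signal of 2.06 to 2.45 on the Rescue-labelled arrays at 0h and at most 21.3, on the KO-labelled arrays titled 8h. Trophoblast markers (10 of 12 tested) summed to 174 to 200 on the Rescue-labelled arrays at 0h, 268 to 280 at titled 8h and 253 to 282 at titled 8h2h. On the KO-labelled arrays they summed to 16.4 to 25.2, 45.7 to 59.4 and 43.3 to 47.5, and at 0h 8 of the 10 were lower there than on the Rescue-labelled ones. Primitive endoderm markers (12 of 12 tested) summed to 31.8 to 49.0. Their part in the differences of the replication genes was not tested.

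Against 0h, the replication genes that passed the test were all lower on treated arrays, in both lines and under both titles. At titled 8h, 12 of 43 were lower and 0 higher on the Rescue-labelled arrays, where 16.1% of all genes tested were called lower and 13% higher. On the KO-labelled arrays 4 were lower and 0 higher, against 13.5% lower and 11.9% higher over all genes. At titled 8h2h, 12 were lower and 0 higher on the Rescue-labelled arrays (all genes 10.8% lower, 10.5% higher) and 17 were lower and 0 higher on the KO-labelled arrays (11.4% and 11%). The 12 calls of the Rescue-labelled arrays are 27.9% of the 43 genes and the 17 calls 39.5%, each above the share of all genes called lower with all arrays and in 25 of 26 alternatives, the exception being no scaling. The 4 calls are 9.3%, under the 13.5% of all genes, but above it in 8 of 26 alternatives: with the slide as a block 7 were lower (16.3%, all genes 15.7%), and without Rescue-labelled 0h replicate c 9 were (20.9%, all genes 15.3%). Orc1, an ATPase subunit of the origin recognition complex whose level varies over the cell cycle, was lower in all 4 comparisons. So was Rrm2, the small subunit of ribonucleotide reductase, and 20 genes were lower in at least 1. Shares of all genes over the 4 comparisons together are not given, so these counts are not set against them.

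The median change of the 43 genes was -0.23 on the Rescue-labelled and -0.20 on the KO-labelled arrays at titled 8h, where the medians of all genes were -0.05 and -0.04. At titled 8h2h it was -0.27 and -0.36, against -0.05 and 0.00 over all genes. By slide, the members' median ranged from -0.31 to -0.16 for Rescue-labelled arrays titled 8h, from -0.25 to -0.16 for KO-labelled arrays titled 8h, from -0.33 to -0.25 for Rescue-labelled arrays titled 8h2h and from -0.52 to -0.27 for KO-labelled arrays titled 8h2h. The mean level of the 43 genes, each centred over the 18 arrays, shows the same on single arrays. It was 0.16, 0.10 and -0.07 on the Rescue-labelled arrays at 0h, -0.13, -0.20 and -0.20 at titled 8h and -0.14, -0.23 and -0.25 at titled 8h2h. On the KO-labelled arrays it was 0.36, 0.28 and 0.28 at 0h, 0.09, 0.09 and 0.07 at titled 8h and 0.06, -0.26 and -0.03 at titled 8h2h. The 0h arrays lay above the treated arrays of their line, without overlap.

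**Figure D1:**
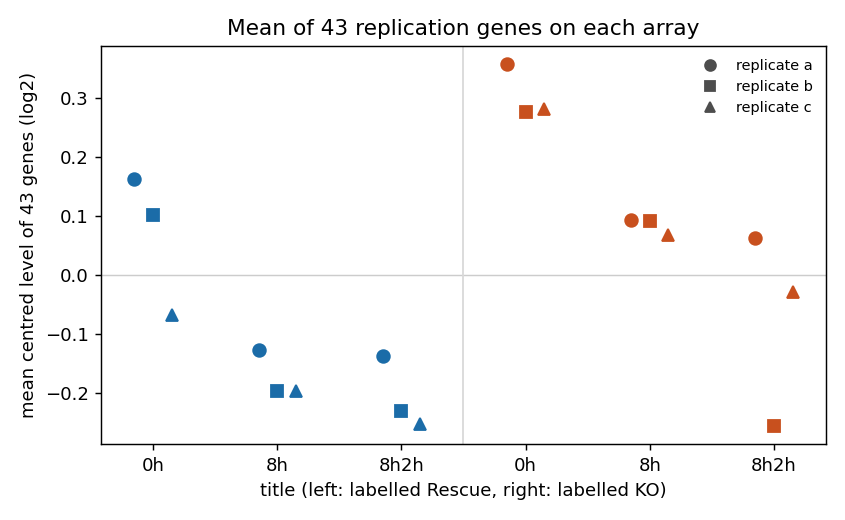
Mean centred level (log2) of the 43 tested replication genes on each array, by title, with Rescue-labelled arrays on the left and KO-labelled arrays on the right; markers show the replicate. The 0h arrays are the highest of each line, Rescue-labelled 0h replicate c (-0.07) is the lowest of the 0h arrays, and KO-labelled titled 8h2h replicate b (-0.26) lies under its replicates.

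These directions hold relative to the bulk of genes on the array. With no scaling between arrays the median of all genes rose by 0.29, 0.28, 0.36 and 0.47 in the 4 comparisons with 0h (Rescue-labelled and KO-labelled titled 8h, then titled 8h2h). The replication genes' median then rose by 0.11, 0.12, 0.14 and 0.11, again under that of all genes. Without scaling Mcm7 in the Rescue-labelled line at titled 8h, 3 of the 12 genes called in that line at titled 8h2h (Mcm4, Rfc4 and Rrm1) and 8 of the 17 called in the KO-labelled line at titled 8h2h (Orc4, Cdt1, Mcm3, Mcm4, Cdc45, Rfc3, Rpa3 and Rrm1) turned positive, and only Orc1 stayed past the threshold, in both lines at titled 8h. In what follows "fell" and "lower" therefore mean relative to the 75th percentile of the array. Quantile normalization and normexp background correction kept the members' median under 0 and under that of all genes in all 4 comparisons.

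**Figure D2:**
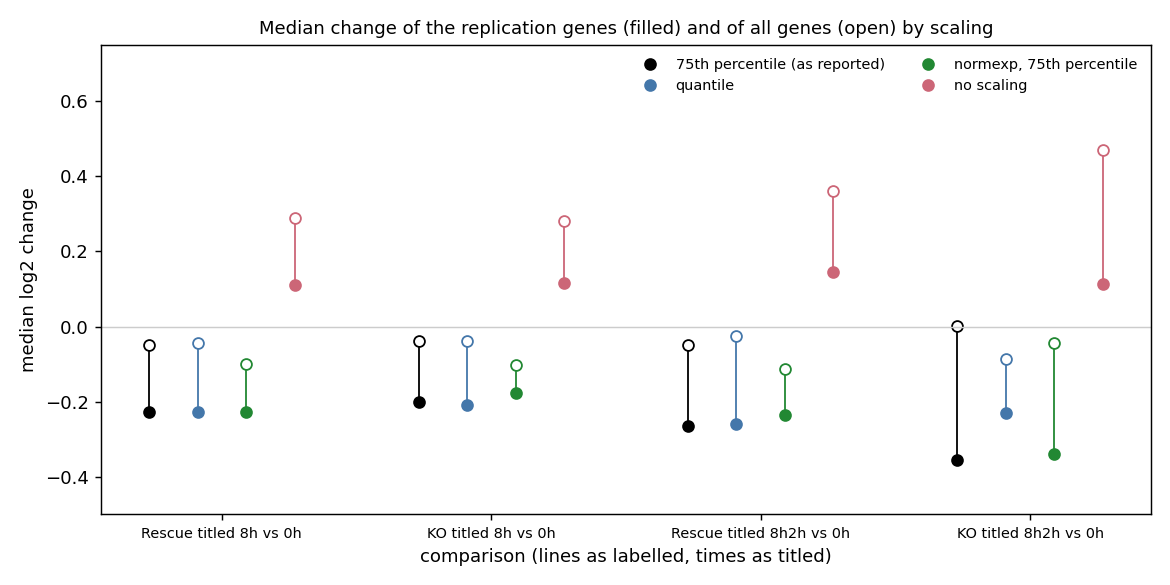
Median log2 change of the replication genes (filled) and of all genes tested (open) in the 4 comparisons with 0h, under 4 ways of scaling (colours), with a line joining each pair. Under each scaling the replication genes lie below all genes, and without scaling both lie above 0.

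Some genes were called lower in both lines. At titled 8h these were 2, Orc1 and Rrm2. They are 4.65% of the 43, under the 9.31% of all genes tested that were lower in both, but above it in 5 of 26 alternatives. These 2 became 7 without Rescue-labelled 0h replicate c (16.3% of the 43, all genes 9.47%), 5 without KO-labelled 0h replicate c and 4 without the high-background array. At titled 8h2h they were 11 (Cdc6, Cdt1, Mcm10, Mcm3, Mcm4, Orc1, Rfc3, Rpa1, Rpa3, Rrm1 and Rrm2), where 5.96% of all genes were. The 11 are 25.6% of the 43, 91.7% of the 12 called in the Rescue-labelled line and 64.7% of the 17 called in the KO-labelled line. Over all genes, 955 were lower in both, out of 1727 called lower in the Rescue-labelled line and 1827 in the KO-labelled line. Without the high-background array 7 were shared, which is 46.7% of 15 and 77.8% of 9. The 11 also became 7 without KO-labelled 0h replicate a, without Rescue-labelled titled 8h2h replicate c or without the filter on dim probes. They were 6 with quantile normalization, 2 with only the arrays compared and 0 without scaling. Of the 64 calls in the 9 comparisons, 2 (Orc1 at titled 8h in each line) were kept under all 26 alternatives. Leaving out 1 array moved some of these counts. The 12 of the Rescue-labelled line at titled 8h became 7 without titled 8h replicate b or without replicate c, and without 0h replicate c 11 were lower and 1, Orc4, was higher (0.31, adjusted p = 0.0359). The 4 of the KO-labelled line at titled 8h became 9 without Rescue-labelled 0h replicate c, whose values enter the shared estimate of spread, and 7 without the high-background array. At titled 8h2h the 12 of the Rescue-labelled line became 7 without titled 8h2h replicate c. The 17 of the KO-labelled line became 9 without the high-background array and 11 without KO-labelled 0h replicate a, and they were 25 without Rescue-labelled 0h replicate c.

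Within a line, arrays of a slide were paired, and the slide as a block added calls against 0h without losing any. The count for the KO-labelled arrays titled 8h was then 7, with Mcm10 (-0.33, adjusted p = 0.0404), Rfc1 (-0.29, adjusted p = 0.03) and Rfc3 (-0.27, adjusted p = 0.0171) added. The other counts were 15 (Rescue-labelled titled 8h), 15 (Rescue-labelled titled 8h2h) and 23 (KO-labelled titled 8h2h). In the Rescue-labelled line Mcm5 (-0.39, adjusted p = 0.0188), Rfc4 (-0.29, adjusted p = 0.0409) and Lig1 (-0.45, adjusted p = 0.0381) were added at titled 8h. At titled 8h2h the block added Mcm5 (-0.41, adjusted p = 0.0184), Lig1 (-0.47, adjusted p = 0.0405) and Orc5 (-0.51, adjusted p = 0.0221) there. In the KO-labelled line at titled 8h2h it added Mcm5 (-0.49, adjusted p = 0.0077), Mcm7, Pole2, Prim1, Pold1 and Rfc1.

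**Figure D3:**
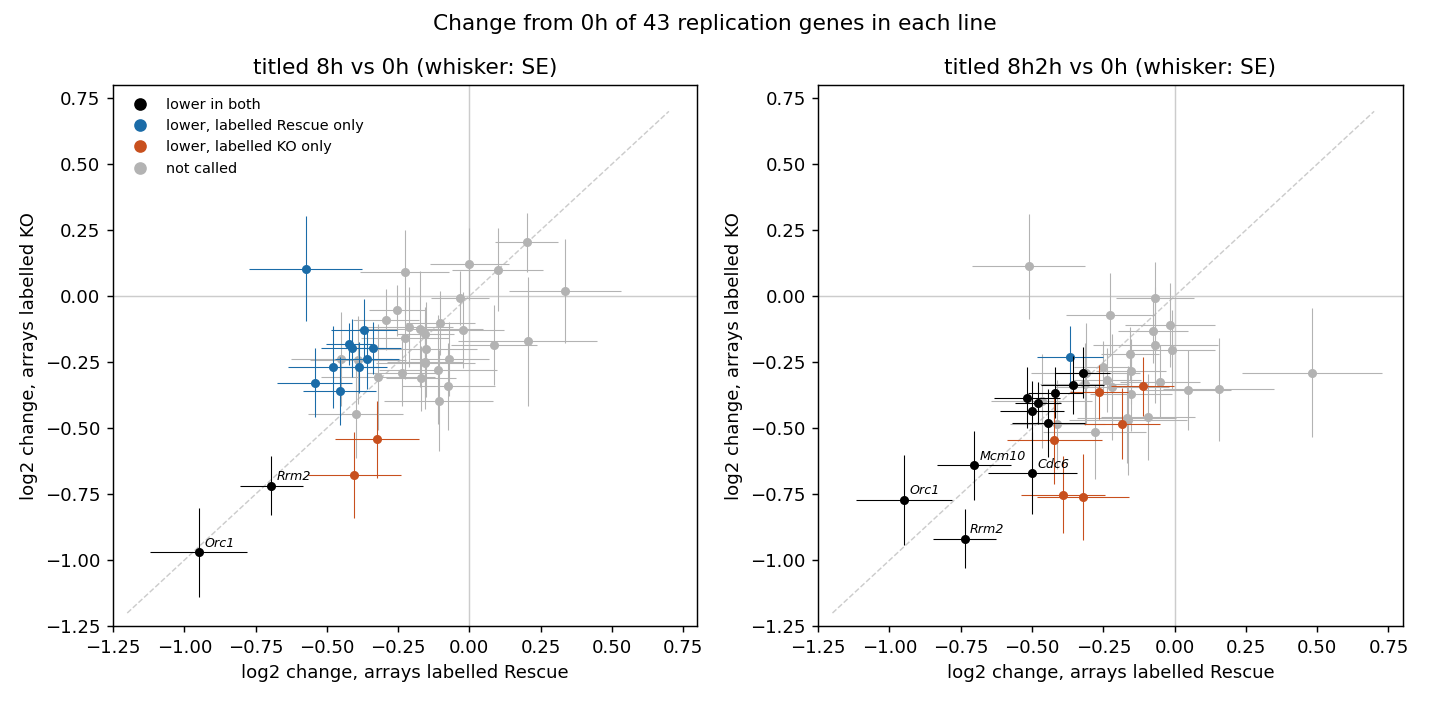
Log2 change from 0h of each of the 43 tested replication genes in the Rescue-labelled line (x axis) and the KO-labelled line (y axis) at titled 8h (left) and titled 8h2h (right), with SE whiskers; black points passed the test in both lines, blue in the Rescue-labelled line alone, orange in the KO-labelled line alone and grey in neither, and the dashed line marks equal change. Most points lie under 0 on both axes, Orc1 and Rrm2 lie farthest from it, and 11 points are black at titled 8h2h against 2 at titled 8h.

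Promoter sequences were set beside these values because the genes called moved together. RefSeq promoter windows (build GRCm38.p6, 250 bases before to 50 after each start) were found for 36 of the 44 genes, 44 windows in all. E2F sites were searched as any of 4 words on both strands: TTCCCGC, or its variant TTGGCGC, or its variant TTGCCGC, or its variant TTCGCGC, with overlapping matches of both strands counted once each. At least 1 match lay in 56.8% of the replication windows (23 of 36 genes), in 14.7% of the 15896 windows of the other genes tested and in 9.57% of all 32851 windows. At least 2 lay in 20.5%, 2.03% and 1.18%. CCAAT was in 56.8% of the replication windows, 37.7% of those of other genes tested and 37.4% of all, and TTTGAA (the CHR element of mitotic genes) in 11.4%, 12.9% and 17.9%. G and C made up 58.2%, 59.4% and 53.8% of the bases. The 23 genes with an E2F match had a median change of -0.34 (Rescue-labelled) and -0.24 (KO-labelled) at titled 8h and -0.37 and -0.40 at titled 8h2h, and the 13 without had -0.15, -0.14, -0.18 and -0.32. These medians are a description, and a match is not shown to be a bound site.

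The stretches shown are 80 bases of promoter windows, with matches in capitals. The first 6 genes had a match before the start and were called lower in both lines at titled 8h2h. Mcm10, the last, was also lower in both but had no match in its window. Rpa1, also lower in both, had no match either, and no window was found for Mcm4. In Cdt1 and Mcm3, also lower in both, the matches lay after the start and are not shown. A second Rfc3 match begins at the start, past the stretch shown.
Orc1 (chr4:108579374-108579453, plus strand): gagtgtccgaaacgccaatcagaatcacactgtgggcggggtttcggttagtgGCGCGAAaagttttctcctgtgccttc
Rrm2 (chr12:24708004-24708083, plus strand): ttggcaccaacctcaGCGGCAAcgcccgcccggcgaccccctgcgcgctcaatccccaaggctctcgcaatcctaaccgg
Cdc6 (chr11:98907993-98908072, plus strand): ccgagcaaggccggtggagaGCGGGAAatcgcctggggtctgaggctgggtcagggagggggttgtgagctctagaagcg
Rpa3 (chr6:8259142-8259221, minus strand): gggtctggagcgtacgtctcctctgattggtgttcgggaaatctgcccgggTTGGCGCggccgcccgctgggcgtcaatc
Rfc3 (chr5:151651209-151651288, minus strand): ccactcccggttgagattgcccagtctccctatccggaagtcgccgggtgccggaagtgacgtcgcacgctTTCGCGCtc
Rrm1 (chr7:102441615-102441694, plus strand): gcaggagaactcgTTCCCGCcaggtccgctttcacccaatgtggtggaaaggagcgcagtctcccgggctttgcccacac
Mcm10 (chr2:5012792-5012871, minus strand): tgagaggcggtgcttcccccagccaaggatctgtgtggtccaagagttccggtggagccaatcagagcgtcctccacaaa
Each is written 5′ to 3′ in the direction of the gene. In Orc1, Rpa3, Rfc3, Rrm1 and Mcm10 the stretch ends at the base before the start, and the Orc1 match begins 27 bases, the Rpa3 match 29, the Rfc3 match 9 and the Rrm1 match 67 bases before it. The Rrm2 match begins 235 and the Cdc6 match 138 bases before the start.

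The genes that load the helicase held the largest fall. Orc1 was at 2.67, 2.63 and 3.40 on the Rescue-labelled arrays at 0h (replicates a, b and c), 1.86, 1.94 and 2.06 at titled 8h and 1.85, 2.04 and 1.97 at titled 8h2h. On the KO-labelled arrays it was at 2.77, 2.65 and 3.01 at 0h, 1.71, 1.98 and 1.82 at titled 8h and 2.09, 1.99 and 2.04 at titled 8h2h. Treated and untreated arrays did not overlap in either line, and the highest value was that of Rescue-labelled 0h replicate c. The change at titled 8h was -0.95 ± 0.17 (SE, adjusted p = 0.000706) in the Rescue-labelled line, a 1.93-fold fall, and -0.97 ± 0.17 (SE, adjusted p = 0.000653) in the KO-labelled line, a 1.96-fold fall. At titled 8h2h it was -0.95 ± 0.17 (SE, adjusted p = 0.00104) and -0.77 ± 0.17 (SE, adjusted p = 0.00475). Without Rescue-labelled 0h replicate c the Rescue-labelled fall at titled 8h was -0.70 (adjusted p = 0.000606). The second Orc1 probe fell too, by 0.61 and 0.78 in the Rescue-labelled and KO-labelled lines at titled 8h.

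Cdc6, the ATPase that joins the origin complex to load MCM rings, was at 2.66, 2.52 and 2.71 on the Rescue-labelled arrays at 0h, 2.26, 2.13 and 2.07 at titled 8h and 2.30, 2.05 and 2.05 at titled 8h2h. The KO-labelled arrays held Cdc6 at 2.81, 2.74 and 2.20 at 0h, 2.46, 2.38 and 2.10 at titled 8h and 2.10, 1.86 and 1.78 at titled 8h2h. In the Rescue-labelled line untreated and treated arrays were apart, and in the KO-labelled line 0h replicate c overlapped the arrays titled 8h. Cdc6 fell by 1.39-fold in the Rescue-labelled line at titled 8h (-0.48 ± 0.16 log2, adjusted p = 0.0327), and by 1.59-fold in the KO-labelled line at titled 8h2h (-0.67 ± 0.16, adjusted p = 0.00683). At titled 8h the KO-labelled change was -0.27 ± 0.16 (SE, adjusted p = 0.251). Without Rescue-labelled 0h replicate c the Rescue-labelled changes were -0.44 (adjusted p = 0.088) at titled 8h and -0.46 (adjusted p = 0.0918) at titled 8h2h, no longer past the threshold.

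Cdt1, which brings the MCM ring to the origin, was at 5.19, 5.13 and 5.34 on the Rescue-labelled arrays at 0h, 4.75, 4.80 and 4.84 at titled 8h and 4.69, 4.80 and 4.73 at titled 8h2h, and at 5.14, 5.12 and 5.16 at 0h, 4.90, 4.98 and 5.0 at titled 8h and 4.73, 4.67 and 4.81 at titled 8h2h on the KO-labelled arrays. The 0h arrays lay above all treated arrays of both lines. Cdt1 fell in the Rescue-labelled line under both titles (-0.42 ± 0.08, adjusted p = 0.00114, and -0.48 ± 0.08, adjusted p = 0.000623) and in the KO-labelled line at titled 8h2h (-0.40 ± 0.08, adjusted p = 0.00241). Gmnn, geminin, the inhibitor of Cdt1, was at 4.93, 5.08 and 4.53 at 0h, 4.48, 4.72 and 4.71 at titled 8h and 4.78, 4.87 and 4.87 at titled 8h2h on the Rescue-labelled arrays and at 5.30, 5.18 and 4.80 at 0h, 4.92, 5.03 and 4.97 at titled 8h and 5.03, 4.70 and 4.93 at titled 8h2h on the KO-labelled arrays. Untreated and treated arrays overlapped in both lines, and no Gmnn change from 0h passed the test (smallest adjusted p = 0.351).

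Of the other origin complex subunits, Orc5 and Orc4 passed the test in at least 1 comparison. Orc5 was at 0.65, 0.40 and 0.78 on the Rescue-labelled arrays at 0h, 0.31, -0.01 and -0.17 at titled 8h and 0.36, -0.12 and 0.06 at titled 8h2h, and at 0.55, 0.55 and 0.48 at 0h, 0.99, 0.31 and 0.60 at titled 8h and 0.83, 0.27 and 0.82 at titled 8h2h on the KO-labelled arrays. Its Rescue-labelled arrays titled 8h lay under those at 0h without overlap, whereas the KO-labelled arrays overlapped. The fall was -0.57 ± 0.20 (SE, adjusted p = 0.0433) in the Rescue-labelled line, -0.49 (adjusted p = 0.134) without Rescue-labelled 0h replicate c, and the KO-labelled change was 0.10 ± 0.20 (SE, adjusted p = 0.769). The difference between these changes, 0.68 ± 0.28, had an adjusted p of 0.319. Orc4 was at 1.20, 1.07 and 1.48 at 0h, 1.53, 1.39 and 1.43 at titled 8h and 1.24, 1.1 and 1.07 at titled 8h2h on the Rescue-labelled arrays and at 1.24, 1.31 and 1.46 at 0h, 1.61, 1.5 and 1.51 at titled 8h and 1.13, 0.90 and 0.96 at titled 8h2h on the KO-labelled arrays. Its mean was lowest on the KO-labelled arrays titled 8h2h, which did not overlap the arrays titled 8h of that line. Orc2, Orc3 and Orc6 were called in no comparison.

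The MCM2 to MCM7 ring subunits lay under their 0h level in all 4 comparisons. Those that passed the test were 2 and 1 of 6 at titled 8h and 2 and 3 of 6 at titled 8h2h (Rescue-labelled, then KO-labelled). As shares these are 33.3%, 16.7%, 33.3% and 50%, beside 16.1%, 13.5%, 10.8% and 11.4% of all genes called lower. Mcm6 was at 6.33, 6.25 and 5.69 on the Rescue-labelled arrays at 0h, 5.81, 5.72 and 5.76 at titled 8h and 5.70, 5.72 and 5.67 at titled 8h2h, and at 6.44, 6.36 and 6.73 at 0h, 5.91, 6.03 and 5.97 at titled 8h and 5.82, 5.61 and 5.85 at titled 8h2h on the KO-labelled arrays. In the KO-labelled line the 0h arrays were all higher than the treated ones, while in the Rescue-labelled line 0h replicate c fell among them. Mcm6 fell by 1.46-fold (-0.54 ± 0.15, adjusted p = 0.0136) and 1.68-fold (-0.75 ± 0.15, adjusted p = 0.00207) in the KO-labelled line. The Rescue-labelled change at titled 8h was -0.32 ± 0.15 (SE, adjusted p = 0.118), and without 0h replicate c it was -0.52 (adjusted p = 0.0032). The difference between the lines was -0.22 ± 0.21 (SE, adjusted p = 0.805) with all arrays.

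Mcm2 was at 4.30, 4.20 and 3.58 at 0h, 3.91, 3.92 and 4.02 at titled 8h and 3.96, 3.89 and 3.95 at titled 8h2h on the Rescue-labelled arrays, and at 4.58, 4.45 and 4.52 at 0h, 4.14, 4.09 and 4.29 at titled 8h and 4.16, 3.77 and 4.24 at titled 8h2h on the KO-labelled arrays. The Rescue-labelled groups overlapped and the KO-labelled 0h arrays lay above the treated ones, but no Mcm2 change from 0h passed the test (smallest adjusted p = 0.0591). Mcm5 was at 5.08, 4.95 and 4.76 at 0h, 4.78, 4.42 and 4.42 at titled 8h and 4.80, 4.40 and 4.35 at titled 8h2h on the Rescue-labelled arrays and, on the KO-labelled arrays, at 5.46, 5.32 and 5.53 at 0h, 5.38, 5.09 and 5.11 at titled 8h and 5.22, 4.65 and 4.98 at titled 8h2h. The KO-labelled arrays lay higher than the Rescue-labelled arrays at 0h and at titled 8h, without overlap. Mcm3 was at 6.53, 6.38 and 6.80 at 0h, 6.32, 6.12 and 6.17 at titled 8h and 6.16, 5.96 and 6.03 at titled 8h2h on the Rescue-labelled arrays and at 6.67, 6.60 and 6.69 at 0h, 6.47, 6.57 and 6.55 at titled 8h and 6.38, 6.08 and 6.36 at titled 8h2h on the KO-labelled ones. Each Rescue-labelled treated array lay under each 0h array, and the fall was -0.37 ± 0.12 (SE, adjusted p = 0.0267) at titled 8h, or -0.26 (adjusted p = 0.103) without 0h replicate c, and at titled 8h2h it was -0.52 ± 0.12 (SE, adjusted p = 0.00519). In the KO-labelled line Mcm3 fell at titled 8h2h (-0.38 ± 0.12, adjusted p = 0.0278; without the high-background array -0.29, adjusted p = 0.102). Mcm7 fell in the Rescue-labelled line at titled 8h (-0.34 ± 0.10, adjusted p = 0.0188; without 0h replicate c -0.29, adjusted p = 0.0587). Mcm4 fell at titled 8h2h in the Rescue-labelled line (-0.32 ± 0.10, adjusted p = 0.0277; without 0h replicate c -0.26, adjusted p = 0.0863) and in the KO-labelled line (-0.29 ± 0.10, adjusted p = 0.0445; without the high-background array -0.20, adjusted p = 0.16).

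Of the factors that switch the helicase on, Mcm10 passed the test at titled 8h in the Rescue-labelled line and Gins2 in the KO-labelled line. That is 1 of 6 in each line (16.7%), near the 16.1% and 13.5% of all genes called lower. At titled 8h2h 1 and 3 of 6 were lower (16.7% and 50%, all genes 10.8% and 11.4%). Mcm10, which helps to open the loaded helicase, was at 4.38, 4.32 and 4.53 on the Rescue-labelled arrays at 0h, 4.01, 3.83 and 3.75 at titled 8h and 3.85, 3.71 and 3.56 at titled 8h2h. The KO-labelled values of Mcm10 were 4.93, 4.87 and 4.66 at 0h, 4.58, 4.50 and 4.40 at titled 8h and 4.44, 3.96 and 4.14 at titled 8h2h. Treated arrays lay under 0h arrays in both lines. It fell by 1.46-fold at titled 8h (-0.54 ± 0.13, adjusted p = 0.00607) and 1.63-fold at titled 8h2h (-0.70 ± 0.13, adjusted p = 0.00144) in the Rescue-labelled line, and by 1.56-fold at titled 8h2h in the KO-labelled line (-0.64 ± 0.13, adjusted p = 0.00295).

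Gins2, a subunit of the GINS complex, was at 2.75, 2.94 and 2.19 on the Rescue-labelled arrays at 0h, 2.14, 2.26 and 2.27 at titled 8h and 2.24, 2.44 and 2.24 at titled 8h2h. The KO-labelled values of Gins2 were 3.44, 3.24 and 3.58 at 0h, 2.70, 2.79 and 2.74 at titled 8h and 2.83, 2.48 and 2.66 at titled 8h2h. The KO-labelled 0h arrays were higher than all other arrays. It fell in the KO-labelled line under both titles, with changes of -0.68 ± 0.16 (SE, adjusted p = 0.00676) and -0.76 ± 0.16 (SE, adjusted p = 0.00392). In the Rescue-labelled line the change at titled 8h was -0.40 ± 0.16 (SE, adjusted p = 0.0802), and without 0h replicate c it was -0.62 (adjusted p = 0.00239). Gins1, another subunit, was at 2.66, 2.73 and 2.30 at 0h, 2.36, 2.35 and 2.31 at titled 8h and 2.32, 2.28 and 2.16 at titled 8h2h on the Rescue-labelled arrays and at 3.04, 2.84 and 2.34 at 0h, 2.56, 2.59 and 2.58 at titled 8h and 2.53, 2.25 and 2.44 at titled 8h2h on the KO-labelled arrays. The 0h replicate c of each line lay among the treated arrays, and no change of Gins1 passed the test. Cdc45, the partner of GINS in the active helicase, was at 0.60, 0.60 and 0.76 at 0h, 0.55, 0.66 and 0.65 at titled 8h and 0.43, 0.33 and 0.40 at titled 8h2h on the Rescue-labelled arrays and at 0.94, 0.90 and 0.99 at 0h, 1.13, 0.72 and 0.96 at titled 8h and 0.67, 0.52 and 0.55 at titled 8h2h on the KO-labelled arrays. Cdc45 was at its lowest on the arrays titled 8h2h in both lines, which did not overlap those at 0h or titled 8h. It fell in the KO-labelled line at titled 8h2h against 0h (-0.36 ± 0.10, adjusted p = 0.0194; without the high-background array -0.33, adjusted p = 0.0536), and the Rescue-labelled change was -0.27 ± 0.10 (SE, adjusted p = 0.0806).

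Of 7 tested genes for polymerases and primase, 1 passed the test against 0h, in the KO-labelled line at titled 8h2h (14.3%, all genes 11.4% lower). Pola1, the catalytic subunit of polymerase alpha, was at 2.51, 2.41 and 1.83 on the Rescue-labelled arrays at 0h, 1.87, 1.78 and 1.90 at titled 8h and 1.79, 1.84 and 1.85 at titled 8h2h. Its KO-labelled values were 3.01, 2.80 and 3.21 at 0h, 2.48, 2.56 and 2.65 at titled 8h and 2.62, 2.18 and 2.59 at titled 8h2h. The KO-labelled arrays lay above the Rescue-labelled arrays of the same title without overlap. Pola1 fell in the KO-labelled line at titled 8h2h (-0.54 ± 0.17, adjusted p = 0.0298; without the high-background array -0.41, adjusted p = 0.109). In the Rescue-labelled line its change at titled 8h was -0.40 ± 0.17 (SE, adjusted p = 0.0894), and -0.61 (adjusted p = 0.00483) without 0h replicate c. The primase subunits Prim1 and Prim2, Pola2, the delta subunits Pold1 and Pold2, and the epsilon subunit Pole2 had changes from 0h between -0.51 and 0.09, none of which passed the test. With the slide as a block Pole2 (-0.51, adjusted p = 0.0046), Prim1 (-0.46, adjusted p = 0.0479) and Pold1 (-0.34, adjusted p = 0.0497) passed it in the KO-labelled line at titled 8h2h. Pole, the catalytic subunit of polymerase epsilon, was at 3.85 and 3.70 on Rescue-labelled 0h replicates a and b (c was the outlier spot), 3.43, 3.23 and 3.21 at titled 8h and 3.51, 3.37 and 3.37 at titled 8h2h. On the KO-labelled arrays it was at 3.70, 3.63 and 3.50, then 3.33, 3.50 and 3.31, then 3.44, 3.24 and 3.38. Each Rescue-labelled treated value lay under both 0h values, and the KO-labelled 0h and titled 8h values met at 3.50.

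Among clamp genes, Pcna, the sliding clamp itself, did not pass the test, while the loader subunits Rfc3 and Rfc4 did. Of the 6 genes, 1 was lower in the Rescue-labelled line at titled 8h (16.7%, all genes 16.1%) and 0 in the KO-labelled line (all genes 13.5%). At titled 8h2h 2 and 1 were lower (33.3% and 16.7%, all genes 10.8% and 11.4%). Pcna was at 6.10, 5.98 and 6.07 at 0h, 6.02, 6.0 and 5.83 at titled 8h and 5.92, 5.79 and 5.74 at titled 8h2h on the Rescue-labelled arrays, and at 6.36, 6.32 and 6.46 at 0h, 6.28, 6.25 and 6.30 at titled 8h and 6.30, 5.75 and 6.14 at titled 8h2h on the KO-labelled arrays. The treated KO-labelled arrays lay under those at 0h, but no change passed the test, with -0.32 ± 0.12 (SE, adjusted p = 0.0741) at titled 8h2h. Rfc3, a subunit of the clamp loader, fell under both titles in the Rescue-labelled line (-0.39 and -0.42) and at titled 8h2h in the KO-labelled line (-0.37), with SEs of 0.10 and adjusted p of 0.00759, 0.00651 and 0.0144. Rfc4 fell in the Rescue-labelled line at titled 8h2h (-0.37 ± 0.12, adjusted p = 0.0356; without 0h replicate c -0.30, adjusted p = 0.113), though its second probe changed by -0.13 (adjusted p = 0.509). Rfc1, Rfc2 and Rfc5 were called in no comparison, though with the slide as a block Rfc1 fell in the KO-labelled line under both titles (-0.29 and -0.28, adjusted p = 0.03 and 0.0369).

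Of replication protein A, which coats single-stranded DNA, 2 of the 3 subunits passed the test. Of the 5 genes that bind single strands or join the lagging strand, 40% were lower under both titles in the Rescue-labelled line (all genes 16.1% and 10.8%). In the KO-labelled line 0 were lower at titled 8h and 40% at titled 8h2h (all genes 13.5% and 11.4%). Rpa1 fell in the Rescue-labelled line (-0.45 ± 0.13, adjusted p = 0.0154, at titled 8h and -0.44 ± 0.13, adjusted p = 0.0237, at titled 8h2h) and in the KO-labelled line at titled 8h2h (-0.48 ± 0.13, adjusted p = 0.0153). Rpa3 fell in the same 3 comparisons (-0.36 ± 0.11, -0.50 ± 0.11 and -0.43 ± 0.11). Without Rescue-labelled 0h replicate c the first Rpa3 value was -0.34 (adjusted p = 0.0605). The KO-labelled Rpa1 value was -0.40 (adjusted p = 0.054) once the high-background array was left out. Rpa2 was at 2.19, 2.40 and 1.74 at 0h, 1.86, 2.11 and 2.15 at titled 8h and 1.98, 2.14 and 2.05 at titled 8h2h on the Rescue-labelled arrays and at 2.42, 2.46 and 2.49 at 0h, 2.22, 2.19 and 2.24 at titled 8h and 2.27, 2.01 and 2.12 at titled 8h2h on the KO-labelled arrays. The Rescue-labelled groups of Rpa2 overlapped, and no change passed the test (smallest adjusted p against 0h = 0.112). Fen1, the flap nuclease that trims Okazaki fragments, was at 4.68, 4.89 and 4.32 at 0h, 4.48, 4.61 and 4.73 at titled 8h and 4.35, 4.54 and 4.55 at titled 8h2h on the Rescue-labelled arrays and at 4.75, 4.76 and 4.71 at 0h, 4.36, 4.68 and 4.78 at titled 8h and 4.36, 4.25 and 4.49 at titled 8h2h on the KO-labelled arrays. Its values overlapped between 0h and treated arrays except for the KO-labelled arrays titled 8h2h (-0.37 ± 0.14, adjusted p = 0.0808). Lig1, the ligase that seals the fragments, was at 4.94, 4.88 and 5.19 at 0h, 4.64, 4.49 and 4.53 at titled 8h and 4.59, 4.62 and 4.41 at titled 8h2h on the Rescue-labelled arrays and at 5.28, 5.26 and 5.88 at 0h, 5.18, 5.12 and 5.41 at titled 8h and 5.14, 4.74 and 5.35 at titled 8h2h on the KO-labelled arrays. The Rescue-labelled treated arrays lay under those at 0h, with a change at titled 8h of -0.45 ± 0.18 (SE, adjusted p = 0.0746).

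Nucleotide supply held the other gene lower in all 4 comparisons. Rrm2, the regulated subunit of the enzyme that makes deoxyribonucleotides, was at 5.55, 5.48 and 5.73 on the Rescue-labelled arrays at 0h, 4.92, 4.86 and 4.90 at titled 8h and 4.97, 4.78 and 4.80 at titled 8h2h. Its values on the KO-labelled arrays were 5.88, 5.70 and 5.71 at 0h, 5.05, 5.07 and 5.02 at titled 8h and 5.10, 4.68 and 4.75 at titled 8h2h. The 0h arrays lay above all treated arrays in both lines. Rrm2 fell by 1.62-fold and 1.67-fold in the Rescue-labelled line (-0.69 ± 0.11 and -0.74 ± 0.11, adjusted p = 0.000302 and 0.000274). In the KO-labelled line it fell by 1.64-fold and 1.89-fold (-0.72 ± 0.11 and -0.92 ± 0.11, adjusted p = 0.000255 and 4.27e-05). Its large subunit Rrm1 fell in the Rescue-labelled line (-0.41 ± 0.11 and -0.36 ± 0.11) and in the KO-labelled line at titled 8h2h (-0.34 ± 0.11), where 0h and titled 8h2h arrays overlapped. The later Rescue-labelled value and the KO-labelled value were lost as calls: without Rescue-labelled 0h replicate c the former was -0.35 (adjusted p = 0.0645), and the latter was -0.26 (adjusted p = 0.14) when the high-background array was left out.

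Tyms, thymidylate synthase, was at 4.34, 4.20 and 3.88 at 0h, 4.06, 3.94 and 3.96 at titled 8h and 3.99, 3.96 and 3.92 at titled 8h2h on the Rescue-labelled arrays. On the KO-labelled arrays it was at 4.33, 4.18 and 4.63 at 0h, 4.07, 4.16 and 4.16 at titled 8h and 3.97, 3.70 and 4.02 at titled 8h2h, where each group lay under the one before. It fell in the KO-labelled line at titled 8h2h (-0.48 ± 0.13, adjusted p = 0.0188; without the high-background array -0.38, adjusted p = 0.0695), but its other probe changed by -0.01 (adjusted p = 0.987). Tk1, the salvage kinase for thymidine, was at 2.88, 3.02 and 1.97 on the Rescue-labelled arrays at 0h, 2.73, 2.84 and 2.91 at titled 8h and 3.13, 3.02 and 3.16 at titled 8h2h, and at 3.90, 3.47 and 3.20 at 0h, 3.53, 3.31 and 3.22 at titled 8h and 3.54, 2.90 and 3.27 at titled 8h2h on the KO-labelled arrays. Rescue-labelled 0h replicate c was the lowest of the 18 arrays. No Tk1 change from 0h passed the test: in the Rescue-labelled line it was 0.20 ± 0.25 at titled 8h and 0.48 ± 0.25 (SE, adjusted p = 0.193) at titled 8h2h, or 0.15 (adjusted p = 0.691) without that array. In the KO-labelled line it was -0.17 ± 0.25 and -0.29 ± 0.25 (SE, adjusted p = 0.423).

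**Figure D4:**
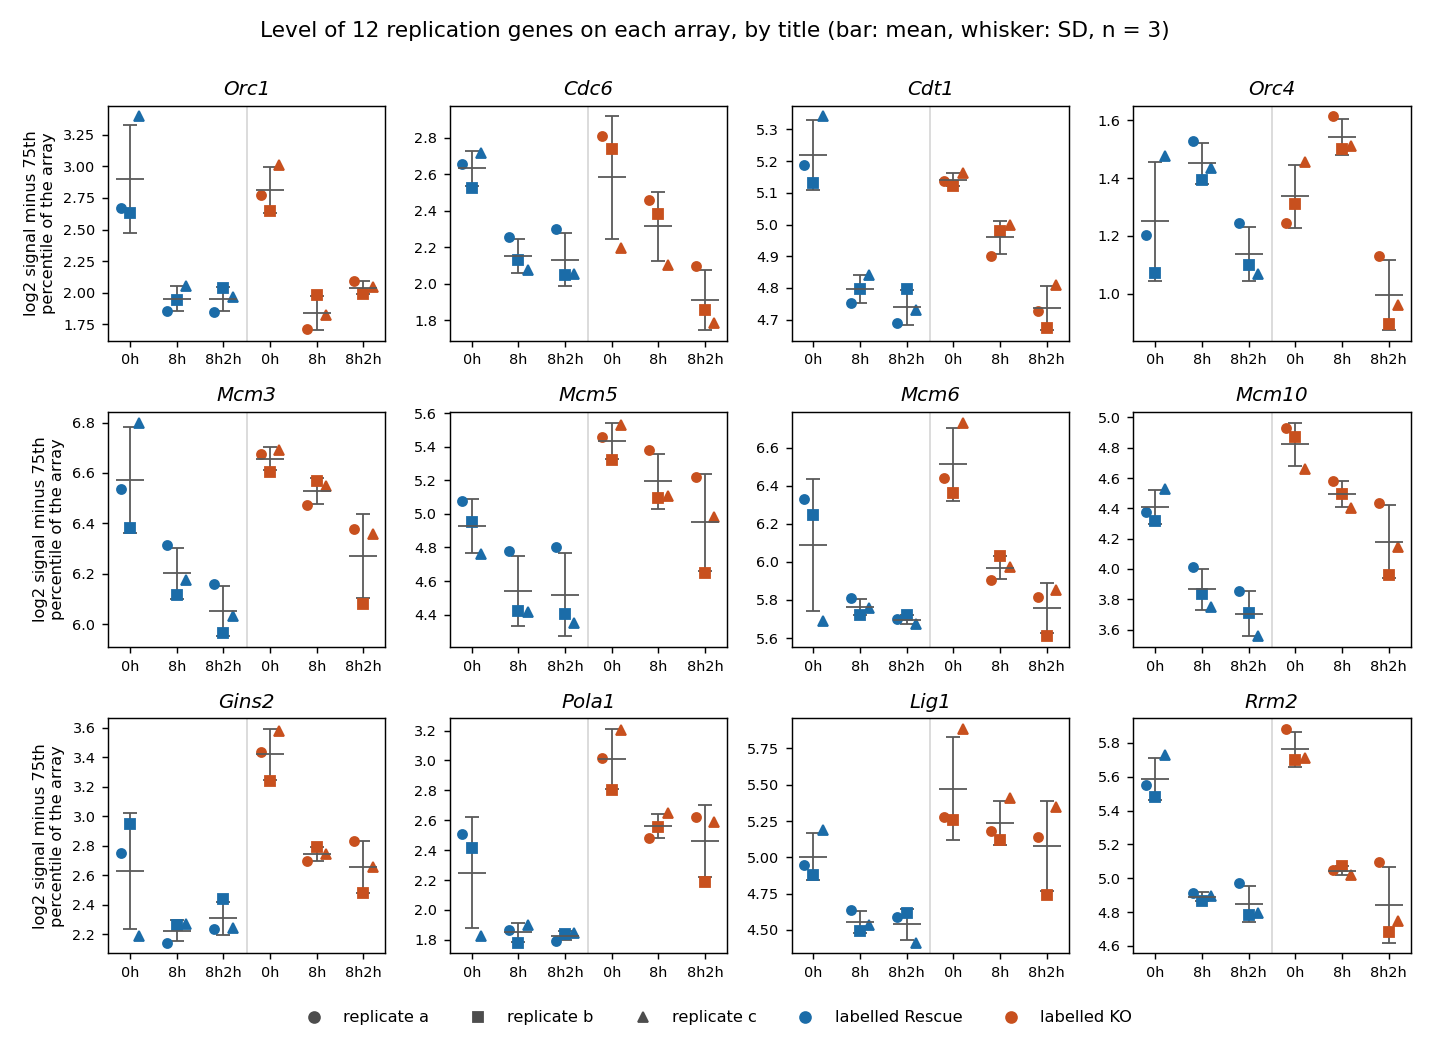
Level of 12 replication genes on each array (log2 signal minus the 75th percentile of the array), by title, with blue for Rescue-labelled and orange for KO-labelled arrays; the bar and whisker give the mean and SD of 3 arrays. Orc1 and Rrm2 drop from 0h to titled 8h in both lines, Pola1 and Mcm5 lie higher on the KO-labelled arrays, and the triangle of Rescue-labelled 0h (replicate c) stands under its replicates for Mcm6, Gins2 and Pola1 and over them for Orc1.

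Between the titles 8h and 8h2h few replication genes passed the test, while of 9 ERK output genes 7 were lower at titled 8h2h in each line, with medians of -2.83 (Rescue-labelled) and -2.72 (KO-labelled). In the Rescue-labelled line limma called 0 of 43 replication genes, against 1.43% higher and 1.45% lower over all genes. At an unadjusted p below 0.05 there were 2, both lower, beside 11.1% of all genes in either direction. The median change of the replication genes was -0.03, and all genes had 0.00. The KO-labelled line had 2 calls, both lower, against 3.2% lower and 4.14% higher over all genes: Orc4 (-0.55 ± 0.11, adjusted p = 0.00822) and Cdc45 (-0.36 ± 0.10, adjusted p = 0.0492). Orc4, an origin complex subunit whose values are given with its family, is read from its brightest probe, and its other probes changed by 0.35 (adjusted p = 0.639) and -0.26 (adjusted p = 0.256). Against 0h they changed by 0.61 and 0.02, where the brightest probe gave -0.34 ± 0.11 (adjusted p = 0.0397). Without the high-background array that last value was -0.29 (adjusted p = 0.111). The Cdc45 call was lost in 22 of 26 alternatives, and without any of 16 of the 18 arrays 1 gene was called in place of 2. The KO-labelled median was -0.16 with all arrays and -0.06 without the high-background array, while on slides a, b and c it was -0.01, -0.38 and -0.09.

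Between the lines, every replication gene that passed the test was higher on the KO-labelled arrays. At 0h these were 5 of 43, against 7.09% higher and 11.3% lower over all genes tested. At titled 8h they were 9 (all genes 9.16% higher, 12.4% lower) and at titled 8h2h they were 3 (9.55% and 12.3%), with 0 lower at each. As shares of 43 these are 11.6%, 20.9% and 6.98%. The last is under that of all genes, but above it in 6 of 26 alternatives: without the high-background array 9 were higher (20.9%, all genes 11.2%), and with the slide as a block 6 were (14%, all genes 11.4%). The first was above in 23 of 26 and the second in 25 of 26. The members' median difference was 0.18 at 0h, 0.22 at titled 8h and 0.12 at titled 8h2h, beside -0.02, -0.01 and 0.01 for all genes. By slide the medians were 0.14, 0.18 and 0.21 at 0h, 0.20, 0.25 and 0.20 at titled 8h and 0.20, -0.07 and 0.18 at titled 8h2h, where slide b carries the high-background array. The direction rests on labels that the Esrrb probe did not bear out, as it was higher with the KO label on treated arrays.

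Mcm10 and Pola1, with the values by array given with their families, were higher at all 3 times. Mcm10 differed by 0.41 ± 0.13 (SE, adjusted p = 0.0417), 0.63 ± 0.13 (SE, adjusted p = 0.0034) and 0.47 ± 0.13 (SE, adjusted p = 0.0184) at 0h, titled 8h and titled 8h2h. For Pola1 the differences were 0.76 ± 0.17 (SE, adjusted p = 0.00553), 0.71 ± 0.17 (SE, adjusted p = 0.00699) and 0.64 ± 0.17 (SE, adjusted p = 0.0136), which is 1.69-fold at 0h. The second Pola1 probe differed the same way at each time, by 0.95, 0.76 and 0.69. Gins2 was higher at 0h (0.79 ± 0.16, adjusted p = 0.00361) and titled 8h (0.52 ± 0.16, adjusted p = 0.0339). Mcm5 was higher at 0h by 0.51 ± 0.17 (adjusted p = 0.0499) and at titled 8h by 0.65 ± 0.17 (adjusted p = 0.0122). Lig1 was higher at titled 8h (0.68 ± 0.18, adjusted p = 0.0136) and titled 8h2h (0.54 ± 0.18, adjusted p = 0.0431).

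Tk1 had the largest difference at 0h, 0.90 ± 0.25 (SE, adjusted p = 0.0195), a 1.87-fold difference. It rested in part on Rescue-labelled 0h replicate c: without that array it was 0.57 (adjusted p = 0.069), and the Mcm5 difference was 0.42 (adjusted p = 0.152), while those of Gins2 and Pola1 were 0.57 (adjusted p = 0.00805) and 0.55 (adjusted p = 0.0169). At titled 8h Pold2, the accessory subunit of polymerase delta, was higher by 0.61 ± 0.16 (SE, adjusted p = 0.0125). Its values at titled 8h were 3.99, 3.78 and 3.65 on arrays labelled Rescue and 4.54, 4.47 and 4.24 on those labelled KO, which did not overlap. Orc5 (0.59), Mcm4 (0.36) and Cdc45 (0.32) completed the 9, with adjusted p of 0.0474, 0.0167 and 0.0395. The second Cdc45 probe differed by 0.08 (adjusted p = 0.796), and of 26 alternatives the Cdc45 call was lost in 15 and the Orc5 call in 16. The Orc1, Cdc6, Cdt1 and Rrm2 pattern of falling with treatment had no counterpart between the lines: their differences ran from -0.22 to 0.18 and none was called. Other genes that fell with treatment in at least 1 comparison (Mcm10, Gins2, Pola1, Mcm4, Cdc45 and Orc5) were also called between the lines.

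Single arrays moved these counts too. The 5 of 0h became 2 without KO-labelled 0h replicate a, 3 without KO-labelled 0h replicate b, Rescue-labelled titled 8h replicate b or c, KO-labelled titled 8h replicate c or KO-labelled titled 8h2h replicate c, and 10 without the high-background array. The 9 of titled 8h became 3 without Rescue-labelled titled 8h replicate c, 4 without Rescue-labelled titled 8h replicate b, KO-labelled titled 8h replicate a or c, and 14 without the high-background array. The 3 of titled 8h2h became 0 without KO-labelled titled 8h2h replicate a, 1 without KO-labelled titled 8h2h replicate c or Rescue-labelled titled 8h2h replicate b or c, 5 without Rescue-labelled 0h replicate c, and 9 without the high-background array. With the slide as a block the counts were 8, 15 and 6, all higher. Without scaling they were 0, 1 (Lig1) and 0, while the members' median difference was 0.32, 0.35 and 0.32 beside 0.12, 0.11 and 0.21 over all genes.

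**Figure D5:**
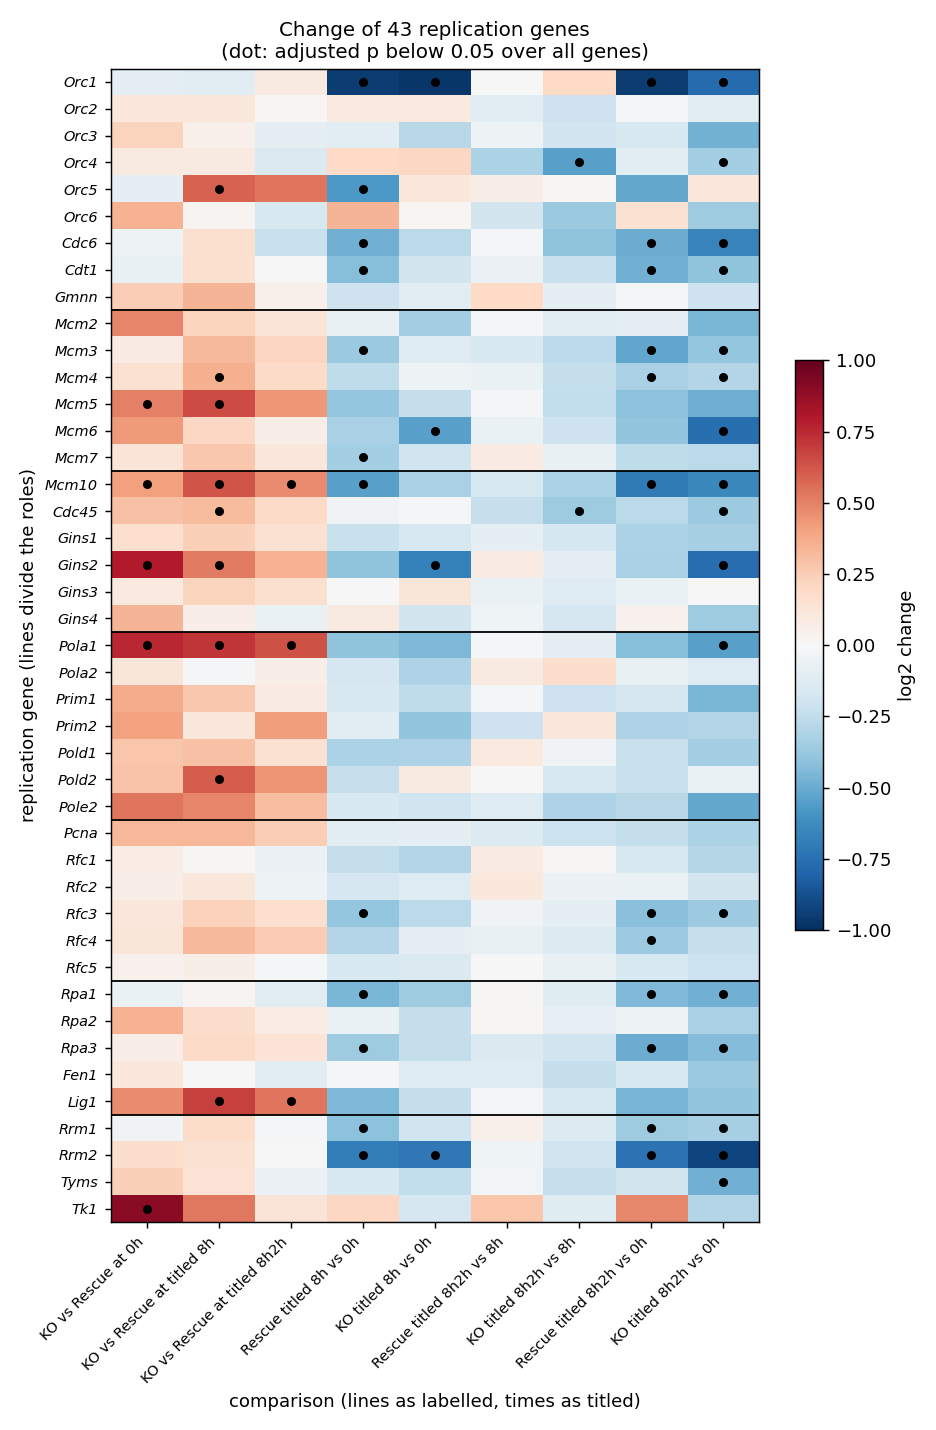
Log2 change of the 43 tested replication genes (top to bottom, divided by role) in 9 comparisons (left to right), from blue (lower) to red (higher), with a dot where the adjusted p over all 16022 genes is below 0.05. The first 3, KO-labelled against Rescue-labelled, hold 5, 9 and 3 dots, all on higher values, and the comparisons with 0h hold 12, 4, 12 and 17, all on lower values.

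Whether the lines responded differently was tested as an interaction. For titled 8h against 0h limma called 0 of 43 replication genes, where 1.07% of all genes were higher and 1.21% lower. At an unadjusted p below 0.05 there was 1 replication gene, Orc5, beside 12.2% of all genes. For titled 8h2h against 8h it called 0 (all genes 0.0499% higher, 0.00624% lower), and 0 had an unadjusted p below 0.05 (all genes 2.76%). The members' median interaction was 0.01 and -0.14. Of the alternatives, only the mean of each gene's probes gave a call, for Orc5 at titled 8h (0.77, adjusted p = 0.0434). A count of 12 in 1 line and 4 in the other at titled 8h is thus not shown to be a difference between the lines.

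Across the 18 arrays the genes varied together to different degrees. The level of Rfc3 correlated best with the mean of the other members (r = 0.93), before Mcm5 (0.92), Mcm10 (0.92) and Mcm6 (0.89). Orc4 (0.23), Pola2 (0.31) and Orc6 (0.38) were the least alike, and Orc1, with the largest fall, had r = 0.47. The arrays share slides, scaling and the group differences described, so these values describe the 18 arrays and carry no test. The range of the 6 group means was widest for Gins2 (1.20), Pola1 (1.18), Mcm10 (1.12) and Orc1 (1.06) and narrowest for Rfc5 (0.22) and Orc2 (0.22). Of the 43 genes 19 were called in no comparison, among them Pcna, Mcm2, Gins1, Gmnn, Rpa2 and Fen1. The share of all genes called in no comparison is not given, so the 19 are not set against it.

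Most replication factors outside the 44 that passed the test were lower on treated arrays. Of 31 tested, 8 were lower and 1 higher on the Rescue-labelled arrays at titled 8h, and 8 were lower and 0 higher on the KO-labelled arrays, with medians of -0.11 and -0.10 (all genes -0.05 and -0.04). The 8 are 25.8% of the 31, beside 16.1% and 13.5% of all genes called lower. Chaf1b, a subunit of the chromatin assembly factor at the fork, fell by 0.72 and 0.55, and Pold3, a polymerase delta subunit, by 0.71 and 0.61. Ticrr, which helps to load Cdc45, fell by 0.66 and 0.95, and Recql4, a helicase used in initiation, by 0.50 and 0.62. At titled 8h2h 5 were lower on the Rescue-labelled arrays, and 10 were lower and 1 (Asf1a) higher on the KO-labelled ones, which is 16.1% and 32.3% lower (all genes 10.8% and 11.4%). Of 21 further genes of nucleotide supply, 4 were lower and 0 higher in each line at titled 8h and 5 lower and 0 higher at titled 8h2h. These are 19% at titled 8h, near the share of all genes in the Rescue-labelled line (16.1%) and above it in the KO-labelled line (13.5%), and 23.8% at titled 8h2h (all genes 10.8% and 11.4%). Samhd1, which breaks down deoxyribonucleotides, fell by 0.62 and 0.68 at titled 8h, Ctps2, a CTP synthase, by 0.67 and 0.60, and Dck, the deoxycytidine kinase, by 0.64 and 0.48. Between the lines Shmt2, the mitochondrial serine hydroxymethyltransferase, was higher on the KO-labelled arrays at all 3 times, by 0.85, 1.14 and 1.02. Of the 21 genes, 1 was called higher there at 0h and 1 at titled 8h2h (4.76% each, all genes 7.09% and 9.55%). At titled 8h 4 were higher (19%, all genes 9.16%), and 0 were lower at any time.

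The E2F and pocket protein genes moved in both directions. Of 13, 4 were lower and 2 higher on the Rescue-labelled arrays at titled 8h and 5 lower and 3 higher on the KO-labelled arrays. As shares these are 30.8% lower and 15.4% higher (all genes 16.1% and 13%), then 38.5% and 23.1% (all genes 13.5% and 11.9%). E2f1, an activating E2F, fell by 1.08 and 1.29, and Rb1, the pocket protein that holds E2Fs back, by 0.87 and 0.89. Tfdp2, a dimer partner of the E2Fs, fell by 1.39 and 0.91. E2f2 rose by 1.40 on the KO-labelled arrays at titled 8h. Between titled 8h and 8h2h it fell by 2.01 there and by 1.25 in the Rescue-labelled line. The interaction at titled 8h called 2 of the 13 genes (15.4%, all genes 1.07%), with the more positive change in the KO-labelled line, and 0 the other way. Of 20 mitotic genes, limma called 11 lower at titled 8h (median -0.37) and 6 at titled 8h2h on arrays labelled Rescue, and 2 and 3 on those labelled KO, with 0 higher. The Rescue-labelled counts are 55% and 30% of the 20 (all genes 16.1% and 10.8%), and the KO-labelled counts are 10% and 15%, near the 13.5% and 11.4% of all genes. Nusap1, a spindle protein, fell by 0.82, Mki67 by 0.67 and the mitotic kinase Aurka by 0.61 in the Rescue-labelled line at titled 8h. Their summed signal was 353 to 443 on the Rescue-labelled arrays at 0h, 287 to 303 at titled 8h and 302 to 323 at titled 8h2h, and 372 to 399, 343 to 365 and 266 to 351 on the KO-labelled arrays. The interaction called 0 of the 20 at titled 8h, and the part of the cell cycle in the falls of the replication genes was not tested.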

How the data were processed

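Total RNA was labelled for Agilent 1-colour mouse arrays, 3 per group on 3 slides. Intensities and 0/1 spot flags were deposited as scanner output of Agilent Feature Extraction, which per the file headers subtracted background, removed spatial trends and set a floor for low values, with no scaling between arrays. The deposited value table held identical intensities. The log2 processed signal minus the 75th percentile of non-control spots on each array was used. Of 56605 probes, 34197 were kept, each well above background on all 3 arrays of a group, and 107 with an outlier spot were left out. The brightest kept probe stood for a gene, which gave 16022 genes. limma 3.58.1 (R 4.3.3) was fitted to 6 group means over 18 arrays (lmFit, eBayes) without a slide term. Benjamini-Hochberg adjustment ran over all genes, with a threshold of 0.05. Changes are log2 ± SE, and treated groups of a line share its 0h arrays, so their changes are not independent.

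The members and the gene lists were chosen with earlier results of these data known. Values by array are given for a fixed set of 18 members and for the 3 called members with the largest rise or fall in each comparison; other genes are given by counts and range. Alternatives were normexp on median spot signals (offset 50), quantile or no scaling, no filter, averaged probes, a slide block, the value table, a fit to the compared arrays alone, and the omission of each array. The fit was tested on simulated data for Rescue-labelled titled 8h against 0h over 16022 genes. It recovered 54% of genes changed by -1, 8% by -0.5, 16% by 0.5 and 38% by 1 (log2), with 1 false call. Only 50 genes of each size were changed there, whereas in the data 16.1% of genes were called lower and 13% higher. The adjustment depends on how many genes change, so these rates do not carry over to the data. Deviations from group means correlated above 0.1 in all 18 pairs of same-slide arrays within a line (0.141 to 0.733) and in 10 of 27 pairs between the lines, so the letters were taken to pair arrays in the comparisons within a line. The number of arrays limits the precision. The values of 1 gene of the nucleotide supply list are not reported here.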

Additional observations from a re-analysis of the deposited data

Results flagged for a closer look

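In 2 replication genes every slide moved one way in one line and the other way in the other line. The share of all genes that did so was not counted, so this count is not shown to exceed it. Pold2, a subunit of polymerase delta, changed from 0h to titled 8h by -0.08, -0.26 and -0.35 on slides a, b and c with the Rescue label and by 0.00, 0.15 and 0.12 with the KO label. The difference between the lines was 0.32 ± 0.22 (SE), and limma's interaction did not pass the test (adjusted p = 0.675). Rrm1, the large subunit of ribonucleotide reductase, changed from titled 8h to titled 8h2h by 0.11, 0.03 and 0.02 in the Rescue-labelled line and by -0.10, -0.31 and 0.00 in the KO-labelled line. The first KO value of Pold2 lay just above 0 and the last of Rrm1 just below it before rounding. The difference was -0.19 ± 0.16 (SE, adjusted p = 0.996), again not past the threshold. No cause was tested for either.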

How the results depend on the processing

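Counts of replication genes called are given in the order KO-labelled against Rescue-labelled at 0h, titled 8h and titled 8h2h (5, 9 and 3 called), then titled 8h against 0h in the Rescue-labelled and KO-labelled lines (12 and 4), titled 8h2h against 8h (0 and 2) and titled 8h2h against 0h (12 and 17). Without scaling they were 0, 1, 0, 1, 1, 0, 0, 0 and 0. Of the called changes 12 turned positive there: Mcm7 to 8.45e-05 in the Rescue-labelled line at titled 8h; Mcm4 to 0.088, Rfc4 to 0.044 and Rrm1 to 0.053 in that line at titled 8h2h; and Orc4 to 0.13, Cdt1 to 0.063, Mcm3 to 0.083, Mcm4 to 0.18, Cdc45 to 0.10, Rfc3 to 0.10, Rpa3 to 0.034 and Rrm1 to 0.13 in the KO-labelled line at titled 8h2h. With normexp, 5 were called between the lines at titled 8h and 1 for KO-labelled titled 8h2h against 8h. Quantile normalization gave 9 between the lines at titled 8h2h, 1 for KO-labelled titled 8h2h against 8h and 9 against 0h. Without the filter 3 were called between the lines at 0h and 1 for KO-labelled titled 8h2h against 8h. The mean of a gene's probes gave 5 between the lines at titled 8h2h, 0 for KO-labelled titled 8h2h against 8h, 1 line difference at titled 8h, and 0.10 for Orc4 in KO-labelled titled 8h2h against 0h. With only the arrays compared, 0 and 1 were called between the lines at 0h and titled 8h2h, 0 for KO-labelled titled 8h2h against 8h, and 7 and 4 at titled 8h2h against 0h, from fewer arrays. The cause of the other moves was not tested, and the value table changed nothing.

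With the slide as a replicate block the counts were 8, 15 and 6 between the lines and 7 for KO-labelled titled 8h against 0h, and no call was lost. Leaving out each array in turn gave 2 to 10, 3 to 14, 0 to 9, 7 to 15, 4 to 9, 0 to 0, 1 to 3, 7 to 15 and 9 to 25 calls, and 0 to 0 line differences in both tests. The KO-labelled titled 8h2h against 8h count was 1 without any of 16 of the 18 arrays.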
